A study of Cucumis sativus with 4 samples.

Results

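In young cucumber (Cucumis sativus) fruits, 200 abundant genes were listed at nearly the same level in all 4 sequenced libraries, which came from a long-fruited and a short-fruited line. They were chosen by their values. A gene was taken when its mean over the 4 libraries was at least 100 RPM (reads of the gene per 1000000 reads assigned to listed genes), when its largest value was at most 15% above its smallest, and when it was not among the 100 genes with the highest mean. Of the 20000 listed genes, 2418 met both abundance limits and are called abundant genes here, so that 200 of 2418 (8.27%) were constant by this rule and 2218 were not.

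The fruits of line 408 are long and those of its near-isogenic partner 409, which has most of the genome in common with it, are short. Both lines were raised under the same greenhouse conditions without an experimental treatment. RNA was measured in early fruits of about 2 to 4 cm collected from both lines on the same day. Each line had 2 biological replicates, each a pool of 3 to 5 fruits from different plants, so a value is an average over fruits and differences between single fruits within a pool cannot be seen. The estimated depth was 12256000 to 13808000 reads per library, and the files name no batch.

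Reference genes are genes whose transcript level is taken as a fixed standard when another gene is measured, for example by quantitative PCR. They are usually drawn from cellular upkeep functions such as the cytoskeleton, protein synthesis and protein turnover, and a gene that is steady in one tissue can vary in another, so constancy has to be measured in the tissue at hand. An RPM value is a share of the library. When some transcripts take up more of a library the shares of all others fall, and a set of genes with constant shares is one way to check how libraries have been scaled. The table identifies genes by ID alone, and 0 of the 20000 IDs were found in the reference table of cucumber genes, so the constant genes are described by ID, level and position and the commonly used reference families could not be looked up.

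The constant genes spanned a mean of 100.3 to 565 RPM, with a median of 150.3 RPM. Together they accounted for 3.62% and 3.58% of all reads in the pools of line 408, against 3.61% and 3.55% for line 409 (replicate 1 first, here and below). The rule itself keeps these shares close together. In bulk fruit RNA fewer cells of a type and less RNA per cell cannot be told apart, and a constant share of reads does not show a constant number of transcripts per cell or per fruit. Constant genes made up 142 of the 1595 abundant genes below 200 RPM (8.90%), 56 of the 766 from 200 to below 500 RPM (7.31%), and 2 of the 57 at 500 RPM or more (3.51%). Their share was lower in the higher classes, a difference that was not tested. Counting error is smaller there, with a median of 2.41% of the value in the lowest class and 1.19% in the highest.

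Constant genes lay at the lower end of a continuous spread and did not form a group apart. The ratio of the largest to the smallest value had a median of 1.73 over all abundant genes, with quartiles of 1.34 and 2.50. Only 14 abundant genes had a largest value within 5% of the smallest, a further 70 lay between 5% and 10%, and 116 between 10% and the limit of 15%. Just beyond the limit, 133 genes lay between 15% and 20%. At the other end, 251 abundant genes (10.4%) differed by more than 4-fold between their extreme libraries. Csa4G551660 was the last gene inside the limit, at 230.5 and 218.1 RPM in long fruit against 246 and 250.5 RPM in short fruit, a ratio of 1.1486. Csa2G034560 was the first gene outside it, at 173.2 and 160.6 RPM for 408 against 184.5 and 160.4 RPM for 409, a ratio of 1.1503. The former had its lines apart and the latter had both its extremes in 409, which a ratio over all 4 libraries does not separate.

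**Figure D1:**
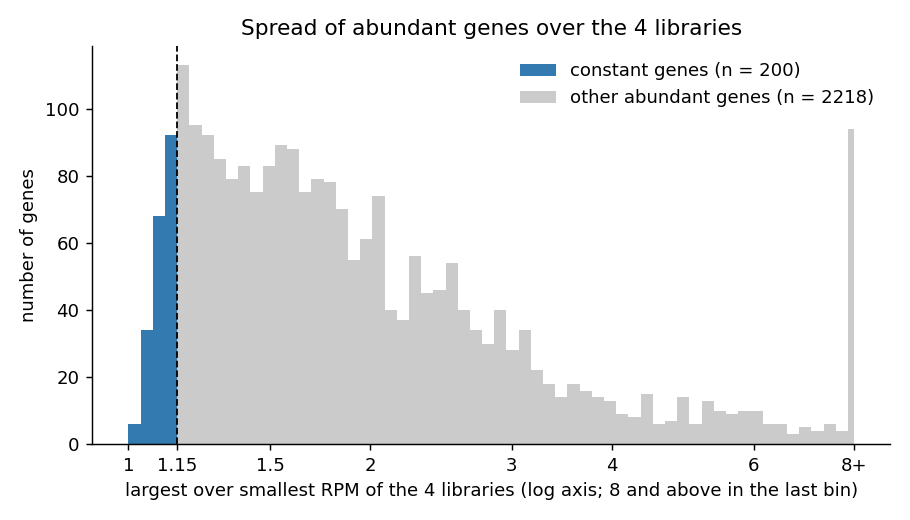
Number of abundant genes (vertical axis) by the ratio of the largest to the smallest RPM of the 4 libraries (horizontal log axis), with the 200 constant genes in blue, the 2218 other abundant genes in grey and the limit of 15% as a dashed line. The limit crosses the rising side of 1 continuous distribution with a median of 1.73, and no gap separates the constant genes from the rest.

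The limits on abundance also passed through genes of like steadiness. Csa3G131950 had the lowest mean of the constant genes, with 100.6 and 96.3 RPM in long fruit against 103.5 and 100.6 RPM in short fruit. Csa7G368130, with 98 and 96.1 RPM for 408 against 103 and 97.8 RPM for 409, had a ratio of 1.07 like it and fell just under the limit of 100 RPM. At the upper end, 4 of the 100 most abundant genes also met the ratio limit. Of these the least abundant was Csa2G012710, which ranked at 75 by its mean and was listed at 716.2 and 676.1 RPM for 408 against 682.1 and 677 RPM for 409. Its highest value, in 408 replicate 1, stood apart from the other 3 libraries by more than they did from each other.

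The genes with the smallest ratios in each class of abundance were taken as candidates for a reference. Below 200 RPM, Csa3G002660 had the smallest ratio of all abundant genes, 1.02, with 104.9 and 105.8 RPM in long fruit against 105.7 and 107 RPM in short fruit. Its mean was 105 ± 0.636 RPM for 408 against 106 ± 0.919 RPM for 409 (mean with SD over 2 pools). Csa3G047790 followed in this class at 198.7 and 197.6 RPM for 408 against 200 and 202.4 RPM for 409. In both genes the highest value was that of 409 replicate 2, and the lowest was in line 408.

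From 200 to below 500 RPM the smallest ratios were those of Csa3G121020 and Csa2G365700. Csa3G121020 was listed at 319.5 and 318.3 RPM for 408 against 319.9 and 309 RPM for 409, so that 3 libraries lay within 2 RPM of each other and 409 replicate 2 was lower. Csa2G365700 was listed at 238.4 and 248.3 RPM for 408 against 243.4 and 246.5 RPM for 409, with the 409 values inside the range of the 408 values. At 500 RPM or more there were just 2 constant genes. Csa7G368740, the most abundant of all 200, had 572.3 and 566.1 RPM for 408 against 557.6 and 564.6 RPM for 409, with means of 569 ± 4.38 and 561 ± 4.95 RPM (SD over 2 pools). Csa1G000020 had 548.2 and 543.1 RPM for 408 against 495.6 and 497.7 RPM for 409. This gene was steady within each line and 1.106-fold apart between its extreme libraries, with both 408 values above both 409 values. That ratio was close to the median of all constant genes, 1.107, and the gene is described because its class held only 2.

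**Figure D2:**
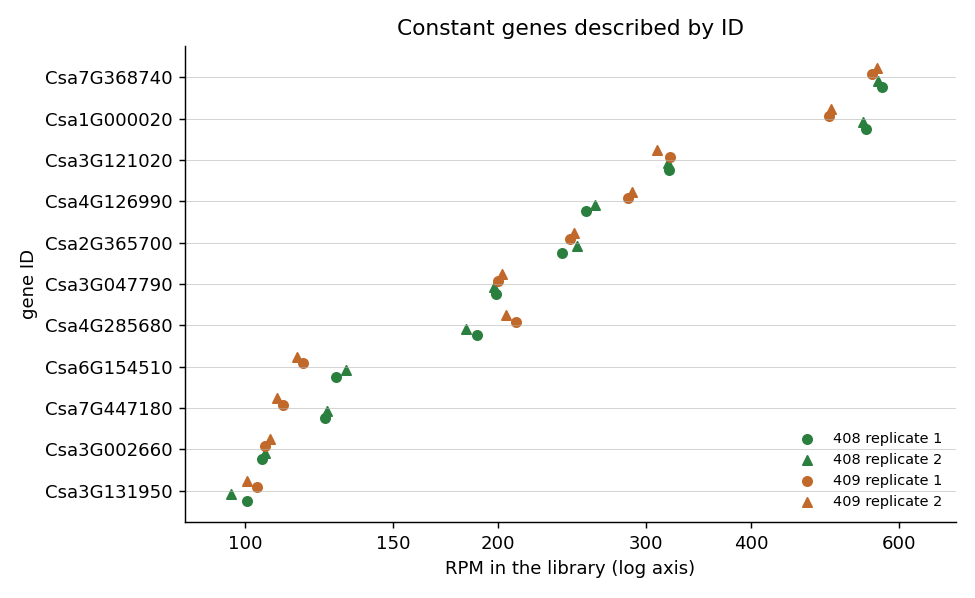
RPM on a horizontal log axis for 11 constant genes described by ID, ordered by mean, with 408 in green, 409 in brown, circles for replicate 1 and triangles for replicate 2. The 4 symbols of Csa3G002660 nearly coincide, at 104.9 to 107 RPM, whereas those of Csa7G447180 and Csa6G154510 fall into a 408 pair on the right and a 409 pair on the left.

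Some constant genes still kept the lines apart within the limit. The values of the lines did not overlap in 93 of the 200 genes (46.5%), 52 of them higher and 41 lower in 408. Over all 17391 tested genes the lines did not overlap in 76.8%, and since the choice used these values nothing is read from the difference. The largest excess in 408 on the log2 scale was that of Csa7G447180, at 124.4 and 125.4 RPM for 408 against 111 and 109.2 RPM for 409, and Csa6G154510 followed at 128.4 and 132 RPM for 408 against 117.4 and 115.5 RPM for 409. In the opposite direction stood Csa4G126990, at 254.6 and 260.6 RPM for 408 against 285.3 and 288.5 RPM for 409. Csa4G285680 was next, at 189.1 and 183.1 RPM for 408 against 210.1 and 204.4 RPM for 409. In these 4 genes the replicates of a line lay closer to each other than the lines did.

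The lines were compared by limma on log2(RPM + 1) over all 17391 genes that reached 1 RPM in 2 or more libraries, with Benjamini-Hochberg adjustment and a threshold of 0.05. Of all tested genes 27.2% passed, 17.1% higher and 10.1% lower in 408, or 4738 genes. After quantile normalization the directions were even, at 2718 higher and 2709 lower. The count was 1356 with the replicate number as a block, and 0 by limma without a filter on low values or with any 1 library left out, where 3974 to 8340 genes had an unadjusted p under 0.05. None of the 200 constant genes passed, their smallest adjusted p was 0.316 by limma, and 0 of them had an unadjusted p under 0.05. The rule used the same contrast, so this count is a description. The difference between the lines, 408 minus 409, ran from -0.15 to 0.18 on the log2 scale over the constant genes, with a median of 0.01. Among the other abundant genes the median size of the difference was 0.60, against 0.06 among the constant genes.

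With 2 libraries per line the interval around each difference stayed wide. limma pools the spread over all genes, so a gene's standard error does not rest on its own replicates alone, and the constant genes had standard errors of 0.13 to 0.18 on the log2 scale. The 95% interval of the difference was -0.34 to 0.31 for Csa3G002660, the steadiest gene, and -0.44 to 0.48 for Csa7G368740. For Csa7G447180 it was -0.15 to 0.51. None of the 200 intervals stayed within a difference of 25% in either direction, and all 200 stayed within 1.5-fold. The rule capped the differences themselves, so these counts mainly describe the width of the intervals, whose median was 0.36 to either side on the log2 scale.

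The spread that remained was set against counting error. From the estimated depth, the constant genes had a mean of 1311 to 7389 reads per library, and sampling of reads alone would give a coefficient of variation of 1.16% to 2.76%. The measured coefficient of variation over the 4 libraries was 0.818% to 7.31%, with a median of 4.59% against a median of 2.26% from counting. The variance over the 4 libraries was at or under the counting variance in 12 genes, under 2 times it in 39 genes and over 5 times it in 71 genes. Its median was 4.09 times the counting variance in the constant genes and 163 times in the other abundant genes. Csa7G368740 had 0.848 times the counting variance and Csa3G121020 had 1.05 times, and both were picked for the smallest ratio in their class. Csa1G000020 had 20.2 times the counting variance, the highest of the constant genes. Csa3G002660 had 0.0876 times, and it was picked as the smallest of 2418 ratios. These values cover counting error only.

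The libraries took more even turns at the ends of the range in the constant genes than in the other abundant genes. The highest value was in 408 replicate 1 for 53 genes, in 408 replicate 2 for 46, in 409 replicate 1 for 55 and in 409 replicate 2 for 46. The lowest value was in 409 replicate 2 for 72 genes, in 408 replicate 2 for 60, in 409 replicate 1 for 48 and in 408 replicate 1 for 20. Both replicate 2 libraries stood at the ends in 47 constant genes (23.5%), against 1536 of the other abundant genes (69.3%). The full order from 408 replicate 2 through 408 replicate 1 and 409 replicate 1 to 409 replicate 2, in either direction, was seen in 36 constant genes (18%) and in 1455 others (65.6%). A limit on the ratio of extremes selects against such a gradient, so these shares describe the selection.

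Relative to each gene's mean of the 4 libraries, the constant genes had medians of 1.01 and 0.994 for the pools of 408 and of 1.00 and 0.990 for those of 409. Single genes ran from 0.910 to 1.09. The other abundant genes ran from 0.0139 to 2.57, and their quartiles were wider in the replicate 2 libraries, at 0.685 to 1.27 in 408 replicate 2 and 0.741 to 1.249 in 409 replicate 2, than in the replicate 1 libraries, at 0.878 to 1.12 in 408 and 0.848 to 1.16 in 409. Within a line, the constant genes differed between replicates by a median of 1.04-fold in 408 and 1.05-fold in 409, and the line means differed by a median of 1.04-fold. The rule caps all 3 of these values. In the other abundant genes the medians were 1.23-fold and 1.14-fold within lines and 1.51-fold between line means.

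**Figure D3:**
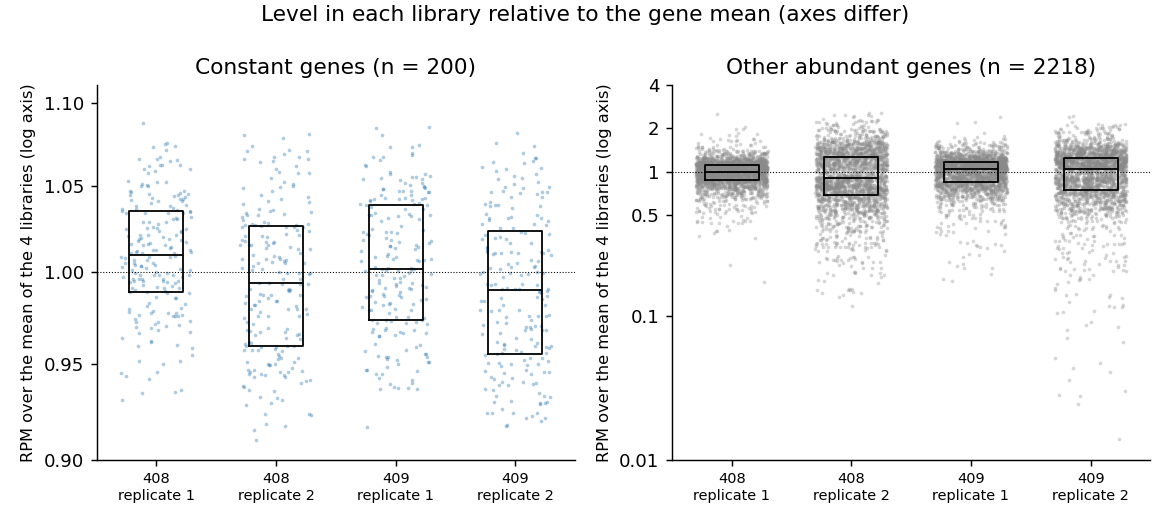
RPM in each library over the gene's mean of the 4 libraries (vertical log axes of different range), with 1 point per gene and boxes from the lower to the upper quartile with the median. Constant genes (left) lie between 0.910 and 1.09 with medians of 0.990 to 1.01, and the other abundant genes (right) spread most in both replicate 2 libraries.

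A library that took no part in the choice shows how far constancy carried over. The rule was applied to 3 libraries, and the level of the remaining library was set against the mean of those 3, counting a gene as within the limit when neither value was more than 15% above the other. With 408 replicate 1 left aside, 244 genes were chosen and 232 of them (95.1%) lay within the limit in that library, against 49.1% of all abundant genes. With 409 replicate 1 left aside, 248 of 292 chosen genes (84.9%) stayed within it, against 37.4% of all abundant genes. Both of these libraries lie between the replicate 2 libraries in most of the other abundant genes, and the 3 libraries that chose the genes then included both ends.

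Constancy carried over less to the replicate 2 libraries. With 409 replicate 2 left aside, 256 of 345 chosen genes (74.2%) stayed within the limit, against 24.8% of all abundant genes. With 408 replicate 2 left aside the share was the lowest of the 4, at 273 of 400 genes (68.2%), against 20.8%. In that library 12 of the 400 genes were at least 1.5-fold away from the mean of the other 3, and the lowest of them was at 0.346 times that mean. The corresponding counts were 5 of 345 genes in 409 replicate 2, 1 of 292 in 409 replicate 1 and 0 of 244 in 408 replicate 1. Being within the limit of the mean of 3 libraries is looser than the rule, which sets the largest against the smallest of all 4 values. The full rule was met by 197 of the 400 genes and 199 of the 345 chosen without a replicate 2 library. It was met by 198 of the 244 genes and 197 of the 292 chosen without a replicate 1 library. In each of the 4 cases the share of chosen genes within the looser limit was higher than that of all abundant genes, in values that the choice had not used. The pools of 1 line share that line, so these libraries are not independent of the ones that chose the genes, and the shares were not tested.

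**Figure D4:**
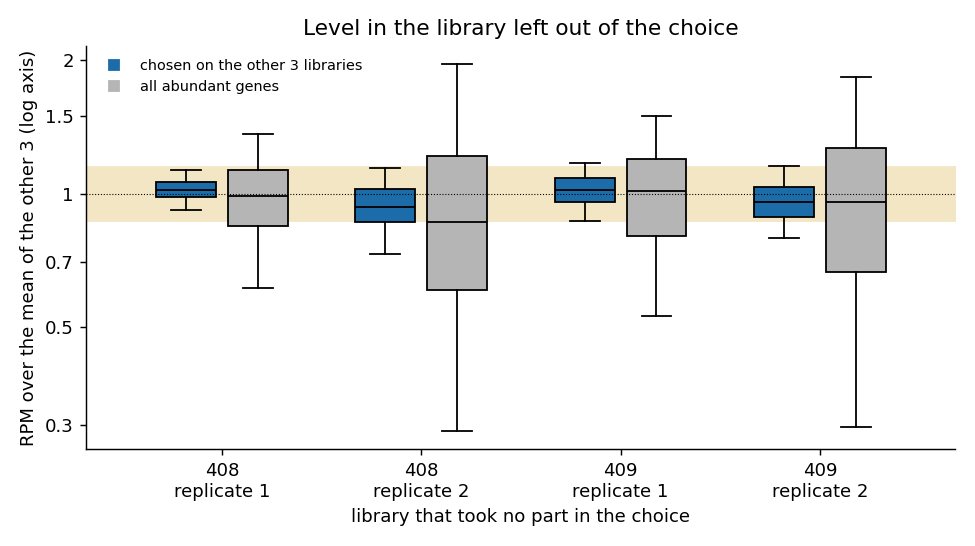
RPM in the library named below over the mean of the other 3 libraries (vertical log axis), for genes chosen as constant on those 3 (blue) and for all abundant genes (grey). Boxes show quartiles and median, whiskers the 5th and 95th percentiles and the band the limit of 15%; the blue boxes are narrowest for 408 replicate 1 (95.1% in the band) and widest for 408 replicate 2 (68.2%).

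The same values bear on the scaling of the libraries. Genes chosen without it had a median of 1.02 in 408 replicate 1 (quartiles 0.984 and 1.06), with 151 of 244 above the mean of the other libraries. In 409 replicate 1 the median was 1.02 as well (0.959 and 1.09), with 167 of 292 above. In 408 replicate 2 it was 0.935 (0.862 and 1.02), with 272 of 400 below. In 409 replicate 2 it was 0.956 (0.888 and 1.04), with 222 of 345 below. At the deposited scaling, genes that were steady in the remaining libraries thus tended to be listed lower in both replicate 2 libraries. Over all abundant genes the medians were 0.862 in 408 replicate 2, with 1481 of 2384 below, and 0.959 in 409 replicate 2, with 1309 of 2435 below, so the median of the chosen genes in 409 replicate 2 was close to that of all abundant genes. The side of 1 depended on the scaling in every library except 408 replicate 2. After median-of-ratios rescaling the medians of the chosen genes were 0.999 and 0.980 for 408 and 0.987 and 1.02 for 409. After quantile normalization they were 1.01 and 0.942 for 408 and 1.01 and 0.965 for 409.

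A factor was then computed for each library as the median ratio of its values to the geometric mean of the 4 libraries, from different sets of genes. The constant genes gave 1.01, 0.995, 1.00 and 0.990 for 408 replicates 1 and 2 and 409 replicates 1 and 2, a range of 1.02-fold that the rule keeps small. All 17391 tested genes gave 1.03, 1.02, 1.01 and 0.951, a range of 1.08-fold with 409 replicate 2 lowest. All 2418 abundant genes gave 1.01, 0.944, 1.04 and 1.02, a range of 1.102-fold with 408 replicate 2 lowest. The 100 most abundant genes gave 0.993, 0.874, 1.07 and 1.01, again with 408 replicate 2 lowest. The library with the lowest factor thus depended on which genes were used, and the factors from the constant genes, fixed near 1 by their choice, cannot decide between them.

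**Figure D5:**
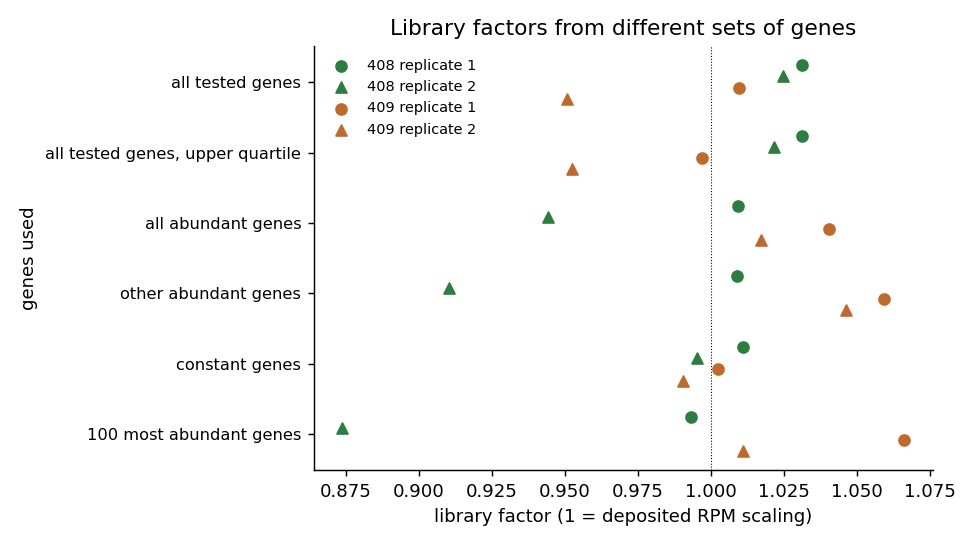
Library factor (horizontal axis, 1 = deposited scaling) from each set of genes (vertical axis), with 408 in green, 409 in brown, circles for replicate 1 and triangles for replicate 2; factors are medians of ratios except where upper quartile is written. The lowest library is 409 replicate 2 over all tested genes (0.951) and 408 replicate 2 over abundant genes (0.944), and the constant genes stay between 0.990 and 1.01.

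How many genes were constant changed little with the scaling, but which genes did so more. After rescaling by the median of ratios over all tested genes, 203 genes met the rule, and 140 were shared, which is 70.0% of the original 200 and 69.0% of the new set. After upper-quartile rescaling the rule gave 210 genes and 146 shared, or 73.0% and 69.5%. Quantile normalization, which gives all libraries the same distribution, led to 213 genes and 177 shared, or 88.5% and 83.1%. Under the deposited scaling, these 3 and rescaling by the constant genes themselves, 118 genes were constant every time. The ratio of Csa3G002660 moved from 1.02 to 1.106 after median-of-ratios rescaling, and that of Csa3G121020 from 1.04 to 1.05. Csa4G126990 moved from 1.13 to 1.23 and then lay outside the limit. Csa1G000020 moved from 1.106 to 1.08 after median-of-ratios rescaling, but to 1.199, outside the limit, after quantile normalization.

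The lines were also compared with the constant genes as the reference. Their factors are held near 1 by the rule, so this rescaling could move the comparison only a little. After rescaling each library by them, 4956 of the 17391 tested genes passed the threshold by limma, 3008 higher and 1948 lower in 408, against 2981 higher and 1757 lower at the deposited scaling. The split was 2901 and 2235 after median-of-ratios rescaling, 2789 and 2312 after upper-quartile rescaling, and 2718 and 2709 after quantile normalization. The median log2 difference over all tested genes was 0.05 with that reference, 0.06 at the deposited scaling and -0.07 after quantile normalization. The smallest adjusted p at the deposited scaling was 0.0317 by limma, and with any 1 of the 4 libraries left out no tested gene passed, at 3974 to 7264 genes with an unadjusted p under 0.05. The geometric mean of the 6 genes with the smallest ratios in their class of abundance was 281.5 and 282.5 RPM in long fruit against 277 and 278 RPM in short fruit. The 6 genes include Csa1G000020, whose line means differed by 1.099-fold and whose ratio of 1.106 was near the median of the constant genes. For all 200 constant genes the geometric mean was 167 and 164 RPM for 408 against 166 and 163 RPM for 409. Both indices differed by 1.02-fold between extremes, which the choice of the genes on these values keeps small.

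Constant genes were spread over the genome as far as the IDs show. In IDs of this kind the first digit is taken to stand for the chromosome, and the later digits for the order of genes on it. By this reading the constant genes came from all 7 chromosome groups, with 51 of the 511 abundant genes in group 3 (9.98%), 31 of 293 in group 4 (10.6%), 31 of 361 in group 1 (8.59%) and 34 of 420 in group 6 (8.10%). Lower shares were found in group 5, with 21 of 290 (7.24%), group 7, with 14 of 236 (5.93%), and group 2, with 18 of 304 (5.92%). None of the 3 abundant genes whose ID has UN there was constant. These shares were not tested.

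Some constant genes lay side by side. Both genes were abundant in 318 pairs of neighbouring IDs, and both were constant in 4 of these pairs. The 4 pairs are named here after their values were seen. They were Csa1G063530 with Csa1G063540, the latter with Csa1G063550, Csa3G002660 with Csa3G002670, and Csa3G047780 with Csa3G047790. Both of the steadiest genes below 200 RPM thus had a constant neighbour. Of the 55 abundant genes next to a constant gene, 7 were constant themselves (12.7%), against 8.27% of all abundant genes. Neighbours that overlap or are near-identical copies could share reads, which was not tested. The rule did not use the levels of a gene's neighbours, but neighbours that met the rule themselves were left out of the next comparison. The share over all tested genes still includes the constant genes. Of the 347 tested neighbours that were not constant, 104 passed the limma threshold between the lines (30%), against 28.6% of 3656 such neighbours of other abundant genes and 27.2% of all tested genes. The shares were close to each other and were not tested.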

How the data were processed

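The deposited table holds RPM values, the authors' unit, which by the column sums is reads per gene per 1000000 reads of the listed genes. Gene length was not taken into account, and values have 1 decimal. Column names gave the sample of each of the 4 columns, with 0 left over. Per the labels' protocols, libraries were directional and made from poly(A) RNA. Per the submitters' processing notes, TopHat was the aligner. Nothing is stated on build, counter or strand setting (not given in the sources used here). Overlapping genes and near-identical copies may therefore share reads.

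Read totals were estimated from the steps of the rounded values up to 30 RPM and used for counting error alone. At 0.0724 to 0.0816 RPM per read, steps are finer than the rounding. Whole reads were thus not recoverable, which leaves no count test. Lines were compared by limma 3.58.1 (R 4.3.3) on log2(RPM + 1) with a mean-variance trend and no covariate. This scale understates changes of low genes. With 2 libraries per line, the smallest exact permutation p for 1 gene is 0.333. Alternatives were other pseudocounts, filters, scalings and limits of the rule, limma without the trend, a replicate block and leaving out each library. The depth estimate and the limma procedure were tested on simulated data. Python 3.11.15 with numpy 2.4.6, pandas 2.3.3 and matplotlib 3.10.9 did the rest.

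The constant genes, the lists and the tests were chosen with earlier results of these data known. Described by ID are the 2 constant genes with the smallest ratio in each abundance class, those with the lowest and the highest mean, the 2 with the largest difference in each direction, and those next to each limit. The IDs were searched in 23999 genes of assembly Cucumber_9930_V3, and no sequence is shown because none could be tied to an ID.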

Additional observations from a re-analysis of the deposited data

How the results depend on the processing

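None of the 200 constant genes passed the limma threshold under any alternative run, with 0 at an unadjusted p under 0.05 in each. The rule chose them on the same contrast, and without a filter or with a library left out no gene at all passed, so this says nothing about stability. Over all tested genes, 4738 passed, and 0 without a filter on low values (8340 at an unadjusted p under 0.05 by limma), and the cause was not tested. With 1 library left out it was 0 to 0, in smaller fits where the spread of the single library is taken from the other line. The replicate number as a block gave 1356. The labels do not say that it marks a shared batch, and same-numbered libraries deviated in opposite directions, with a correlation across genes of -0.48. A crossed pairing, added after the data were seen, gave 8605.

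The 200 constant genes became 84 at a limit of 10%, 333 at 20%, 472 from 50 RPM and 58 from 200 RPM. With 1 library left out, so that fewer values have to agree, the rule gave 244 to 400 genes. The count was highest without 408 replicate 2 and next without 409 replicate 2 (345), and the cause of this ranking was not tested. The genes chosen anew with 1 library left out were set against their mean of the remaining libraries. Their medians ranged from 0.994 to 1.01 in 408 replicate 1 and 0.988 to 1.00 in 408 replicate 2. They ranged from 0.993 to 1.01 in 409 replicate 1 and 0.991 to 0.998 in 409 replicate 2. The rule caps these values in the libraries it used, so the narrow ranges say nothing about stability. For genes chosen without it, the median in 408 replicate 2 moved from 0.935 to 0.980 after median-of-ratios and 0.982 after upper-quartile rescaling. That in 409 replicate 2 moved from 0.956 to 1.02 and 1.01, so its side of 1 depended on the scaling. Quantile normalization left them at 0.942 in 408 replicate 2 and 0.965 in 409 replicate 2. The median in 408 replicate 1 moved from 1.02 to 0.999 and 0.995 under the same 2 rescalings, and that in 409 replicate 1 from 1.02 to 0.987 and 1.002. These replicate 1 shifts were smaller than the median SD between replicates of single constant genes, 0.0293 in 408 and 0.0325 in 409. The rule caps this SD, and it does not measure the uncertainty of a median over genes. Of 225 refits of the 15 genes described by ID, 35 moved the log2 difference by more than the gene's own spread between replicates. All 35 were under a rescaling, and no difference exceeded 0.23 in size. Other filters, no trend or a block leave the log2 difference as it is, and leaving out 1 library cannot shift it beyond that spread. Those refits could show no move, so 35 of 225 does not measure stability. Under median-of-ratios and upper-quartile rescaling, all of the 15 genes except Csa2G034560 moved. The TMM scaling was replaced by upper-quartile scaling because it needs counts, and the lists of reference families were not run because the IDs have no product names. For the constant genes counting error had a median of 2.26% of the value, against a measured variation of 4.59%.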
